A study of Mus musculus with 2 samples.

Results

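The Hox genes are the protein-coding genes named Hoxa, Hoxb, Hoxc or Hoxd followed by a number, and all 39 of them were found among the 69691 rows of the gene tables by matching the gene identifiers to GENCODE names. They were measured in the forebrain of B6NCrl mouse embryos, a C57BL/6 substrain, at embryonic day 14.5. The labels place both samples in 1 untreated group, E14.5 forebrain, as biological replicates 1 and 2, and each is described as a single forebrain although the sex is given as pooled. The labels name the same donor entry for both and different collection dates, so that separate litters are not established and the spread between the libraries may include technical spread. Each library was made from 10 ng of total RNA of more than 200 nt, with spike-ins, and replicate 1 held 35310017 expected counts and replicate 2 held 29250404. With 1 group of 2 libraries no comparison between conditions was possible, and errors are standard deviations over the 2 libraries (SD, n = 2).

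Hox genes encode homeodomain transcription factors that give cells of the body axis their position. They lie in 4 clusters, and within a cluster the genes of low paralogue number are switched on first and reach furthest forward, into the hindbrain, while those of high number act in the lower trunk, the tail, the limbs and the genital region. In vertebrates no Hox gene is normally active in front of the hindbrain, and the clusters are kept silent there by Polycomb group proteins. The forebrain therefore serves as a Hox-free territory, and the question put to the data was how close to 0 the 39 genes stood and what level would have been seen.

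Because the 39 proteins share the homeodomain, their reads could be confused, and the homeoboxes of Hoxa5, the member with the most reads, and Hoxd8 are shown for that reason. They are 180 bases each, read 5′ to 3′ on the coding strand of the GENCODE M21 transcripts, with bases that differ from Hoxa5 in capitals.
Hoxa5: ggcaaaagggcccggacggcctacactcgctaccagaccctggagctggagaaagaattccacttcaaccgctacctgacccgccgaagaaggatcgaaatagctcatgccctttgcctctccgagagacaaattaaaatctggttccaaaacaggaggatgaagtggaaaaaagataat
Hoxd8: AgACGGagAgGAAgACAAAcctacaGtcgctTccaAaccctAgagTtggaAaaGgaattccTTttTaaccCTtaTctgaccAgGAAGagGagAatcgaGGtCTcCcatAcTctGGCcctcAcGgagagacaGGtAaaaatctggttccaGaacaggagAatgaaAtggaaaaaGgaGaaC
The Hoxd8 homeobox differed from that of Hoxa5 at 55 bases. Over all 741 pairs of members the longest run of identical aligned bases in the homeobox was 52, shorter than the 100-base reads. Of all 100-base windows in the members' transcripts, 95.3% occurred in no other annotated gene on the same strand, and in 31 of 39 members every window did so. The lowest shares were 42.2% for Hoxd3 and 58.9% for Hoxd4, which overlap each other and the annotated gene Gm28230, so the split of reads at that locus is uncertain. A further limit is that 9 members share a window with an annotated gene on the opposite strand. Both comparisons count exact matches only, and the homeoboxes of the most similar pair were 93.9% identical. Whether reads with mismatches were confused between members was not tested.

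No Hox gene reached the floor of 3 expected counts in both libraries. The floor is the 1-sided 95% limit that a count of 0 allows, while the 2-sided exact interval of a count of 0, used for levels given with an interval, reaches 3.69 counts. Of all 21474 protein-coding genes, 71.2% reached it in both libraries, against 0 of 39 Hox genes. In at least 1 library 3 Hox genes reached it, Hoxa5, Hoxb5 and Hoxd8, where 74.4% of protein-coding genes did. No read at all was assigned in either library to 23 of the 39 members, against 20.5% of protein-coding genes. The other 13 members had 1 or 2 counts in at least 1 library. The summed counts of all 39 genes were 14 in replicate 1 and 21 in replicate 2, or 0.396 CPM in replicate 1 (95% exact Poisson interval, 0.217 to 0.665) and 0.718 CPM in replicate 2 (0.444 to 1.10), where CPM is the count scaled to the library total. Intervals and floors here cover counting error only, since amplified reads are not independent molecules.

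**Figure D1:**
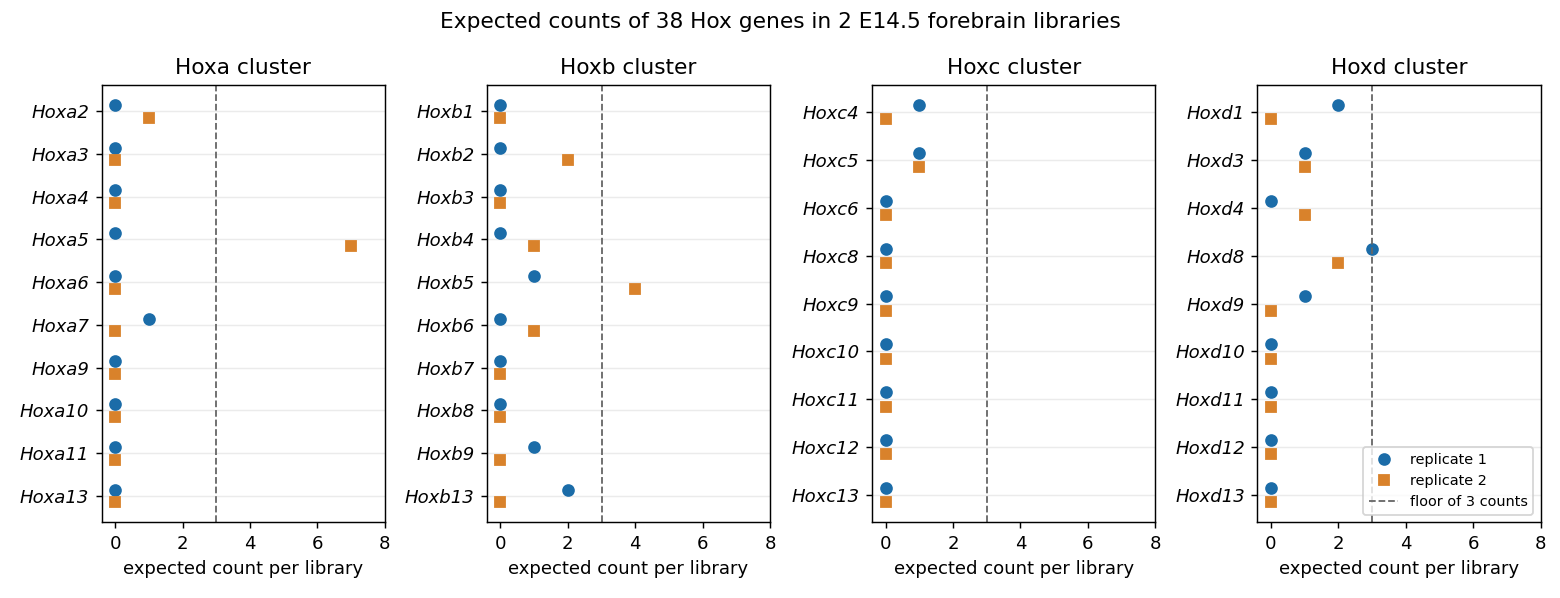
Expected counts (x axis) of 38 of the 39 Hox genes in each cluster (rows, by paralogue number) in replicate 1 (circles) and replicate 2 (squares), with the floor of 3 counts as a dashed line. Hoxa5 and Hoxb5 lie past the floor in replicate 2 and Hoxd8 lies on it in replicate 1, while 22 of the genes shown stand at 0 in both libraries.

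On the TPM scale, a share of the library's transcripts in which counts are divided by length, the 39 genes together held 0.38 TPM in replicate 1 and 0.70 TPM in replicate 2 (0.54 ± 0.226 TPM, SD, n = 2). The median protein-coding gene alone stood at 3.87 and 4.59 TPM. The depth and each gene's effective length set what could have been seen. The level of 3 counts lay between 0.0464 TPM (Hoxc5) and 0.263 TPM (Hoxa7) in replicate 1, with a median over members of 0.0744 TPM, and between 0.0600 TPM (Hoxb2) and 0.233 TPM (Hoxb7) in replicate 2, with a median of 0.0966 TPM. The value of Hoxa7 in replicate 1 rests on an effective length of 499 nt, since its 1 read was assigned to its shortest transcript. In replicate 2, where it had no read, its effective length was 1107 nt and its floor 0.154 TPM. A Hox gene at its level of 3 counts in the tissue as a whole would have given 3 reads on average. At a lower level a gene could give 1 or 2 reads or none at this depth. In whole tissue, expression in few cells and little RNA per cell cannot be told apart.

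The genes of paralogue groups 1 to 4 pattern the hindbrain and are the Hox genes that reach nearest to the forebrain. They held 4 of 14 counts in replicate 1 and 6 of 21 in replicate 2, and 5 of these 12 members had no read. No read was assigned to Hoxb1, which specifies a hindbrain segment and the facial motor neurons that arise in it. Hoxa2, a regulator of the second pharyngeal arch and of the most anterior Hox-positive hindbrain segment, had 0 and 1 count, and Hoxb2 had 0 and 2 counts. Of the reads of Hoxb2 in replicate 2, 1.86 were assigned to a transcript with a retained intron. Hoxa3, Hoxa4 and Hoxb3 had no read, whereas Hoxd3 had 1 count in each library, Hoxb4 and Hoxd4 1 count each in replicate 2, Hoxc4 1 in replicate 1 and Hoxd1 2 in replicate 1. None of these 12 genes reached the floor in any library.

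Paralogue groups 5 to 8, whose members act in the caudal hindbrain, the neck and the upper trunk, held the largest share of the few reads of the 3 ranges, 6 of 14 (42.9%, exact Clopper-Pearson 95% interval 17.7 to 71.1%) in replicate 1 and 15 of 21 (71.4%, 47.8 to 88.7%) in replicate 2. These 11 genes made up 23.6% and 22.8% of the members' summed effective length, which lies inside the interval in replicate 1 and below it in replicate 2. Hoxa5 (ENSMUSG00000038253.6, chr6:52201754-52204587, minus strand, GRCm38), a gene of neck and lung development, had 0 counts in replicate 1 and 7 in replicate 2, or 0 and 0.22 TPM. The counting intervals of its level, 0 to 0.0907 TPM in replicate 1 and 0.0898 to 0.460 TPM in replicate 2, overlapped at their ends. Hoxb5 (ENSMUSG00000038700.4, chr11:96303336-96306121, plus strand), which is active in the caudal hindbrain and the enteric neural crest, had 1 and 4 counts, or 0.02 and 0.13 TPM. Hoxd8 (ENSMUSG00000027102.4, chr2:74704615-74707933, plus strand), a trunk gene, had 3 and 2 counts, or 0.08 and 0.12 TPM.

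Of these 3 genes Hoxd8 had the values closest together, at 0.10 ± 0.0283 TPM (SD, n = 2), while those of Hoxa5 (0.11 ± 0.156 TPM) and Hoxb5 (0.075 ± 0.0778 TPM) had an SD larger than their mean. The effective length of Hoxd8 was 1659 nt in replicate 1 and 948 nt in replicate 2, where 0.57 of its 2 reads was assigned to a transcript of 557 nt. Its TPM there thus depends on how 2 reads were split, and lay below its floor of 0.180 TPM. All reads of Hoxa5 and Hoxb5 were assigned to their protein-coding transcripts ENSMUST00000048794.6 and ENSMUST00000049272.4. Hoxa5 has no other annotated transcript, so its assignment was fixed in advance, whereas Hoxb5 also has a transcript with a retained intron. Hoxc5 had 1 count in each library, Hoxa7 had 1 in replicate 1 and Hoxb6 had 1 in replicate 2. Hoxa6, Hoxb7, Hoxb8, Hoxc6 and Hoxc8 had none. Together the 3 genes of paralogue group 5 held 2 counts in replicate 1 and 12 in replicate 2, and for every one of the 39 members the counting intervals of the 2 libraries overlapped.

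Paralogue groups 9 to 13, which act in the lower trunk, limb, tail and urogenital tract, contributed 4 counts in replicate 1 and 0 of 21 in replicate 2, where the exact interval allows a share of up to 16.1%. The 4 counts were 2 of Hoxb13, a gene of the tail and the prostate, 1 of Hoxb9 and 1 of Hoxd9. The other 13 of these 16 genes had no read in either library. They include Hoxa13 and Hoxd13, the regulators of digits and genitalia, Hoxc13, a gene of hair and nail, and all 3 genes each of groups 10 and 11, which pattern the lumbar and sacral region and the kidney. These 16 genes made up 44.0% and 43.9% of the members' effective length.

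In each library 10 members had a read, and 4 (Hoxb5, Hoxc5, Hoxd3 and Hoxd8) had one in both. At 1 or 2 counts for most of them, these data do not tell whether the libraries differ in which members had reads. The counting intervals overlapped for all 39, but overlap is not a test of a difference, and those of Hoxa5 met only at their ends. The Hoxd cluster held 7 of 14 counts in replicate 1 (50.0%, 23.0 to 77.0%) and 4 of 21 in replicate 2 (19.0%, 5.45 to 41.9%). The Hoxa cluster held 1 count in replicate 1 and 8 in replicate 2, of which 7 were those of Hoxa5. The Hoxb cluster held 4 and 8 counts, and the Hoxc cluster 2 and 1. Summed over all members, the log2 ratio of replicate 2 over replicate 1 was 0.88 (0.70 against 0.38 TPM). On size-factor-scaled counts the ratio was 0.78, with an exact 95% binomial interval of -0.27 to 1.87 that includes no difference. Without Hoxa5 the TPM ratio was 0.34.

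Protein-coding transcripts held all 14 counts in replicate 1 and 18.1 of 21 in replicate 2 (86.4%). The remaining 2.86 counts lay on transcripts of Hoxb2 and Hoxd3 with a retained intron. Reads were assigned to 19 of the 87 annotated transcripts of the members. Members such as Hoxa5, Hoxb13, Hoxd1 and Hoxd8 have only protein-coding transcripts annotated, so the type given to their reads was fixed in advance.

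Between the first and last Hox gene of the 4 clusters, 45 other genes are annotated, of which 4 had any read. Many of the 45 could hardly be measured, since 8 had an effective length of 0, and 16 belong to the class misc_RNA, with effective lengths of at most 134 nt. Hotairm1, an antisense RNA of the Hoxa cluster, had 0 and 2 counts, Hoxaas3 had 0 and 1, and Hoxb3os had 0 and 1. Hotair, a long non-coding RNA of the Hoxc cluster, had none. Gm11539, a processed pseudogene in the Hoxb cluster, was the only one to reach the floor in both libraries, with 3.40 and 3.41 expected counts. These are not whole numbers, unlike the counts of all 39 Hox genes. Reads were thus divided between Gm11539 and other genes, and could be divided wrongly.

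The clusters also carry 6 microRNA genes of the miR-10, miR-196 and miR-615 families, which repress Hox messages among other targets. Their hairpins are 80 to 110 nt long, below the 200 nt of the RNA used, and too short or barely long enough for a 100-base read, so their 0 counts say nothing about them. The mature 5p arms of the 2 families that share seeds across clusters are shown because they mark what these libraries could not measure. The sequences are from RefSeq on GRCm38.p6, with the seed, bases 2 to 8, in capitals.
mmu-miR-10a-5p: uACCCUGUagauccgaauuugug
mmu-miR-10b-5p: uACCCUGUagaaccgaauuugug
mmu-miR-196a-5p: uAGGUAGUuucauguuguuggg
mmu-miR-196b-5p: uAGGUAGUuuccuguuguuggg
The mature arm of Mir10a lies in the Hoxb cluster (chr11:96317186-96317208, plus strand) and that of Mir10b in the Hoxd cluster (chr2:74726074-74726096, plus strand), and these mature forms differ at 1 base outside the seed. The mature arm of Mir196b lies in the Hoxa cluster (chr6:52230129-52230150, minus strand), and the mature miR-196a arises from copies in the Hoxb and Hoxc clusters.

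Of the 16 protein-coding genes that flank the clusters, 2 on each side, 13 reached the floor in both libraries, near the 71.2% of all protein-coding genes that did. In both libraries 12 had 1 TPM or more. The median protein-coding gene lay above that cutoff too, at 3.87 and 4.59 TPM, and the share of all genes above it was not counted. The flanking genes lay between 8.75 kb (Evx2) and 894 kb (Hnrnpa3) from their cluster, and the nearest 3, Evx2, Ttll6 at 28.9 kb and Evx1 at 52.6 kb, were at or near 0. Mtx2, a mitochondrial import gene 60.7 kb beyond Hoxd1, stood at 133 ± 0.636 TPM, where Hoxd1 itself had 0.05 and 0 TPM in replicates 1 and 2. Lnpk, 88.9 kb away on the other side of the Hoxd cluster, stood at 34.4 ± 9.53 TPM, Hnrnpa3 at 159 ± 11.6 TPM, Calcoco1 at 45.6 ± 8.14 TPM, Atp5g2 at 196 ± 44.2 TPM, Smug1 at 19.9 ± 0.304 TPM and Cbx5 at 128 ± 9.13 TPM. Beside the Hoxa cluster, Skap2 stood at 5.17 ± 0.0495 TPM, Snx10 at 44.4 ± 10.6 TPM and Hibadh at 35.7 ± 2.67 TPM. Evx1 and Evx2, homeobox genes that lie next to the Hoxa13 and Hoxd13 ends and are expressed in spinal interneurons and the tail, had no read in either library. Beside the Hoxb cluster, Skap1 stood at 2.17 ± 0.191 TPM and Snx11 at 16.5 ± 2.65 TPM, but on the Hoxb13 side Ttll6 had 4 and 7 counts and Calcoco2 4 and 0.

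**Figure D2:**
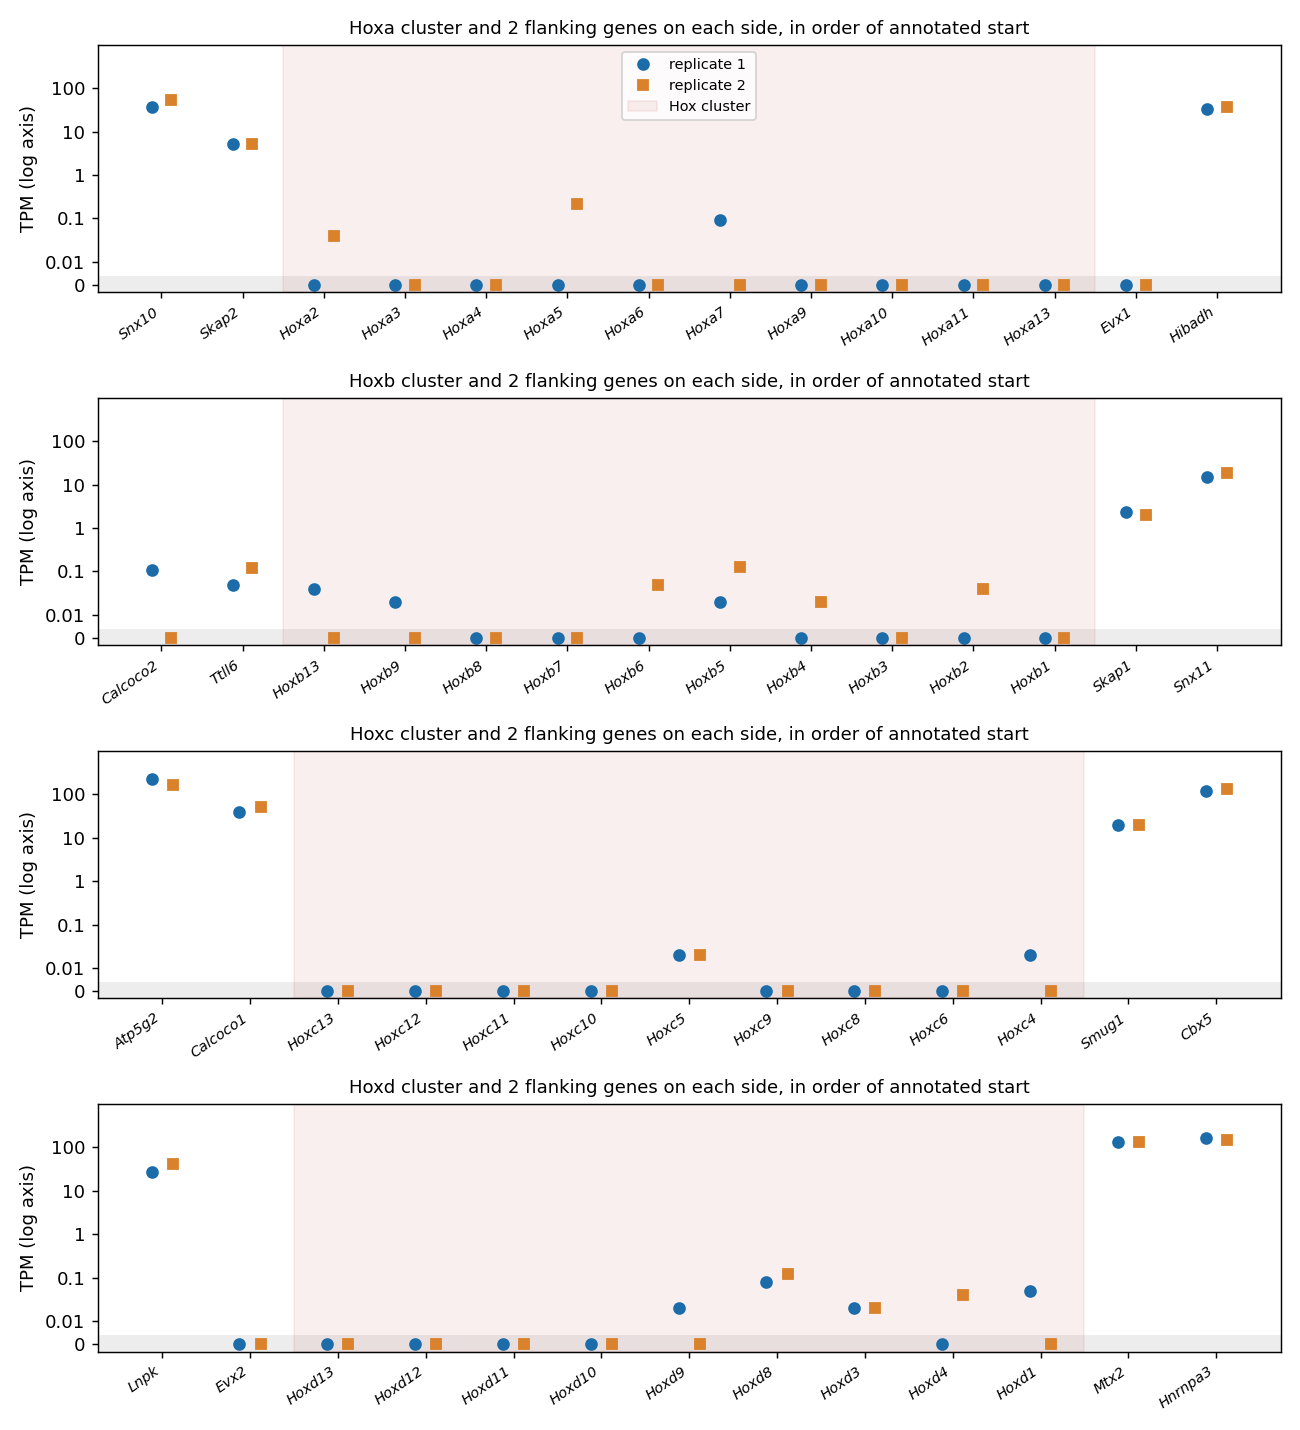
TPM (y axis, log scale, with genes at 0 in the grey strip) of 38 of the 39 Hox genes and of the 2 nearest protein-coding genes on each side, in order of annotated start, in replicate 1 (circles) and replicate 2 (squares); the shaded part is the cluster. Hox genes lie at 0 or at most at 0.22 TPM, while 12 of the 16 flanking genes have 1 TPM or more in both libraries. The median of all protein-coding genes is 3.87 TPM in replicate 1 and 4.59 TPM in replicate 2. Hoxc5 stands before Hoxc9 because its annotated gene starts there.

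Hox proteins bind DNA together with TALE homeodomain partners, and these genes were expressed. All 9 of the TALE list (Pbx, Meis and Pknox genes) reached the floor in both libraries, with a median of 39.6 ± 0.219 TPM, against a median of 0 TPM over the 39 Hox genes in each library. The floor was reached in both by 71.2% of all protein-coding genes. Meis2 stood at 89.3 ± 9.11 TPM, Meis3 at 76.2 ± 6.91, Pbx3 at 51.3 ± 1.77 and Pbx4 at 39.6 ± 0.219 TPM. Of the homeobox genes of the forebrain, 17 of 18 reached the floor, with Dlx1 at 139 ± 15.4 TPM (a locus that an antisense gene overlaps), Lhx2 at 78.6 ± 8.34, Dlx5 at 55.8 ± 13.7, Emx1 at 54.6 ± 3.45 and Dlx2 at 40.4 ± 4.49 TPM. The exception was Hesx1 with 1 and 0 counts.

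Among the ParaHox genes, the evolutionary sisters of the Hox clusters, Gsx2 and Gsx1, which specify ventral forebrain progenitors, had 222 and 132 counts and 95 and 57 counts in replicates 1 and 2. Pdx1, Cdx1, Cdx2 and Cdx4, genes of the gut and the caudal body, had none, as for most Hox genes. The regulators of Hox transcription in the list include Polycomb and Trithorax genes, retinoic acid receptors and Gdf11. Over all protein-coding genes 71.2% reached the floor in both libraries, and of these regulators 23 of 23 did. They had a median of 19.2 ± 0.573 TPM and were led by the Polycomb genes Rnf2 at 119 ± 4.41 TPM and Ezh2 at 97.7 ± 5.88 TPM, followed by Ctcf at 83.9 ± 6.31, Men1 at 47.2 ± 8.56 and Gmnn at 46.4 ± 11.5 TPM.

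**Figure D3:**
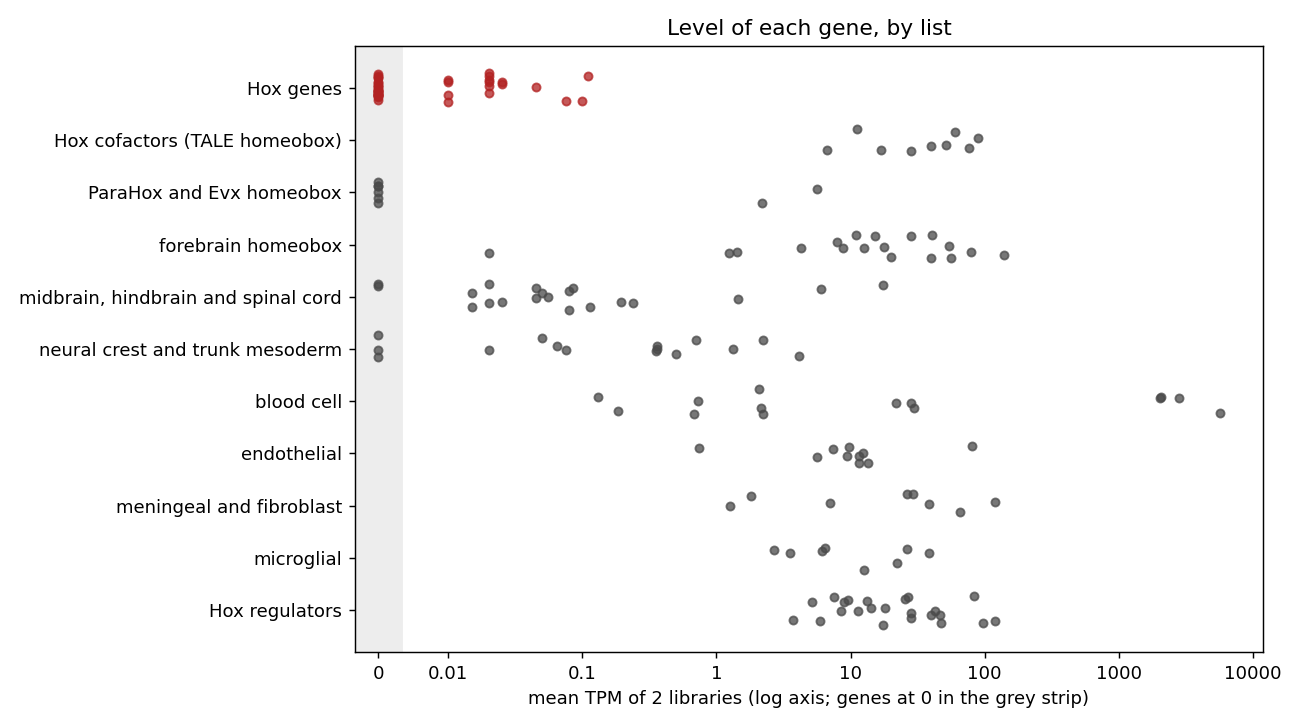
Mean TPM over the 2 libraries (x axis, log scale, genes at 0 in the grey strip) of every gene of each list (rows); red points are the 39 Hox genes. The Hox genes lie at or under 0.11 TPM, below all 9 TALE cofactors and all 23 regulators.

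Markers of other regions and cell types were detected to unequal degrees. For comparison, 71.2% of all protein-coding genes reached the floor in both libraries. The midbrain, hindbrain and spinal cord list summed to 25.1 TPM in replicate 1 and 27.1 TPM in replicate 2 over 20 genes, of which 6 reached the floor in both. Gbx2 (17.5 ± 0.0141 TPM) and Olig3 (1.44 ± 0.0566 TPM), which are also expressed in the forebrain, were among them, and Pax3 stood at 0.24 ± 0.0566 TPM and Ptf1a at 0.195 ± 0.163 TPM. Mnx1, a defining gene of spinal motor neurons, had no read, and En2 had 1 count in each library. Of 15 genes of neural crest and trunk mesoderm, 8 reached the floor in both, and the 15 together summed to 8.84 and 11.5 TPM. Prrx1 (4.15 ± 0.304 TPM), Tbx18 (2.23 ± 0.0636 TPM), Foxc2 (1.33 ± 0.629 TPM), Twist1 (0.70 ± 0.170 TPM) and Tbx1 (0.50 ± 0.198 TPM) led them, and Myf5, Pax1 and Pax9 had no read.

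All 14 genes of the blood cell list reached the floor in both libraries, summing to 11336 and 14022 TPM. That floor was reached by 71.2% of all protein-coding genes, a share that also applies to the lists below. In whole tissue, which cells held the RNA of a listed gene was not determined, for this list and those below. Hba-a2 (5686 ± 852 TPM), Hbb-bs (2821 ± 639 TPM), Hba-a1 (2059 ± 214 TPM), Hbb-bt (2025 ± 181 TPM) and Cd34 (29.5 ± 1.57 TPM) led that list. Reads of the globin copies, which are almost alike in sequence, could be divided wrongly among them. All 10 endothelial genes reached the floor, summing to 153.7 and 170.4 TPM, with Cldn5 at 80.2 ± 5.03 TPM, Pecam1 at 13.4 ± 0.841, Kdr at 12.4 ± 2.08, Sox18 at 11.6 ± 1.70 and Cdh5 at 11.5 ± 0.262 TPM. All 8 meningeal and fibroblast genes did so, summing to 243.0 and 334.6 TPM, with Col3a1 at 120 ± 24.8 TPM, Dcn at 65.1 ± 11.4, Col1a2 at 38.4 ± 15.3, Lum at 29.2 ± 1.76 and Col1a1 at 17.1 TPM in replicate 1 and 35.5 TPM in replicate 2. All 8 microglial genes did so, summing to 112.9 and 123.2 TPM, with C1qb at 38.3 ± 0.297 TPM, Tyrobp at 26.3 ± 0.629, C1qa at 22.1 ± 2.65, Csf1r at 12.6 ± 2.30 and P2ry12 at 6.45 ± 1.13 TPM. The summed TPM was higher in replicate 2 than in replicate 1 for the Hox genes and for every other list except the ParaHox and Evx genes (8.80 TPM in replicate 1 and 6.78 TPM in replicate 2). The median of all protein-coding genes was also higher in replicate 2, at 4.59 against 3.87 TPM. A higher TPM there is thus not particular to these lists. The part of other cell types in the Hox reads was not tested.

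The deposited tables hold a second level per gene, the posterior mean TPM, and in it every Hox gene stood above 0. The 29 members with a count of 0 in replicate 1 had posterior mean TPM of 0.02 to 0.31, and the 29 in replicate 2 had 0.02 to 0.40. Summed over the 39 genes it came to 3.85 TPM in replicate 1 and 5.19 TPM in replicate 2, where the TPM summed to 0.38 and 0.70. For members without a read the posterior mean tracked the TPM that 1 read on each annotated transcript would give, with a median ratio of 0.972 in replicate 1 (0.786 to 1.13) and 0.973 in replicate 2 (0.832 to 1.11). The lower bound of the deposited TPM interval was above 0 for all 29 members without a read in each library. Hoxa13, with no read, had a posterior mean of 0.40 TPM in replicate 2, above the 0.25 TPM of Hoxa5, which had 7 reads.

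**Figure D4:**
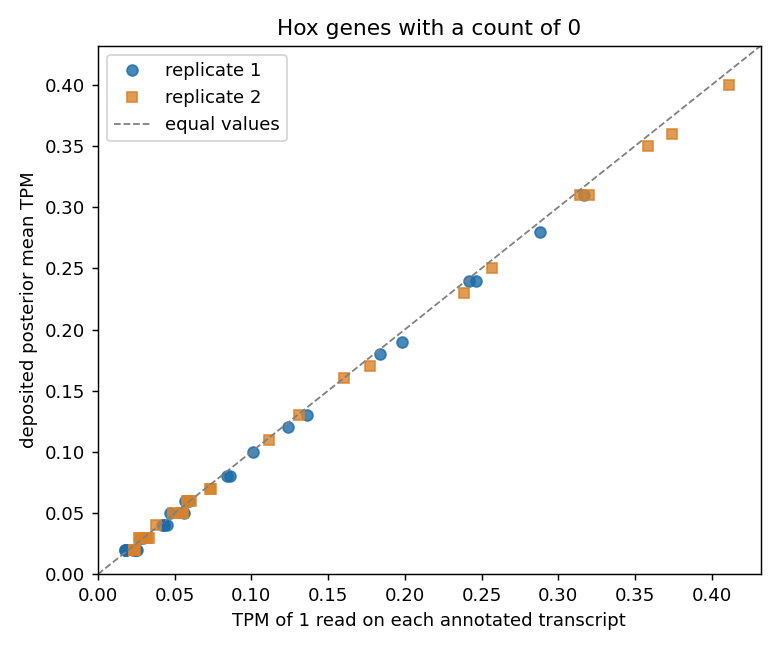
Deposited posterior mean TPM (y axis) of Hox genes with a count of 0 against the TPM that 1 read on each of the gene's annotated transcripts would give (x axis), for 29 genes in replicate 1 (circles) and 29 in replicate 2 (squares); the dashed line marks equal values. The points follow the line up to 0.40 TPM although none of these genes had a read in that library.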

How the data were processed

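The authors deposited 1 gene-level and 1 transcript-level file for each of the 2 libraries, with expected counts (estimated read numbers), TPM, FPKM and, for transcripts, the percent that each contributes to its gene, per the file headers. The deposited bounds of a TPM interval, a signal that is never negative, carry no stated level. Reads were assigned to mm10 (GRCm38) with GENCODE M4, per the deposited notes. The aligner, the program that estimated levels and its strand setting are not given in the sources used here. A gene and its antisense partner may therefore share reads.

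Names, types and coordinates came from GENCODE M21, which matched 42462 of 43346 Ensembl genes (98.0%) and all 39 Hox genes. The floor of 3 counts was converted to TPM with each gene's effective length. Counting intervals are exact, at 95%. The libraries differed by more than sampling noise (chi-square per degree of freedom of 28.7 over 18238 genes), so each counted as 1 sample. Windows of 100 bases were compared with all GENCODE M21 transcripts on the same strand. Deposited TPM have 2 decimals. Python 3.11.15, pandas 2.3.3, numpy 2.4.6, scipy 1.17.1 and matplotlib 3.10.9 were used. The floor and its conversion to TPM were also run on Poisson counts drawn at set levels. That run used the same conversion and counting error only, so it cannot tell how the floor performs in these data. No test across genes was made, since there is 1 group. Any Hox gene could be named, with full values for those with 3 or more counts in at least 1 library. Some Hox genes without a read are covered only by the counts of their paralogue range. Also named are the up to 5 most abundant genes of every other list, list members at 0 and the flanking genes. Hesx1, En2, Hotairm1, Hoxaas3, Hoxb3os and Hotair were named after their values were seen. Some genes and sequences are not reported here, although their values enter the sums and counts. The Hox genes and all lists were chosen with earlier results of these data known.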

Additional observations from a re-analysis of the deposited data

How the results depend on the processing

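Of 100 alternative values over 24 results, 91 stayed within the range allowed, 9 moved out of it and none reversed. That range was 1.5 times either way for a count of genes, 1 SD over the libraries for a level or share, and a span as wide as the counting interval, centred on the value, for the ratio of the libraries. Leaving out 1 of 2 libraries moves a mean level or share by less than 1 SD whatever the values. Those alternatives could not move out of the range, although they enter the 91. Of the 20 genes of the midbrain, hindbrain and spinal cord list, 6 reached the floor in both libraries, 4 with a floor of 10 counts and 8 to 9 in a single library, which is at the edge of that range. The number of Hox genes at the floor in both libraries, 0, was also 0 with posterior mean counts and with every gene whose symbol starts with Hoxa to Hoxd. A floor of 10 counts and a limit to protein-coding transcripts also gave 0. Neither could raise the number, so their outcome was fixed in advance. The number was 4 with a floor of 1 count and 1 to 2 in a single library. It was 3 when counts were summed over both libraries, an alternative chosen after seeing the data. The summed level of the 39 genes was 4.52 TPM on posterior mean TPM, against 0.54 TPM, since that estimate gives genes without a read a level above 0. Without Hoxa5, the member with the highest mean TPM, the Hoxb cluster held 42.9% of the counts on average over the libraries instead of 33.3%. Paralogue groups 1 to 4 held 35.7% without Hoxa5, 22.9% on protein-coding transcripts only and 23.3% by TPM, instead of 28.6%, a value that was equal in both libraries, so that any move passed their spread. Limiting sums and shares to members at the floor in both libraries gave no value, since there were none. No paired analysis was possible because there is 1 group. With 14 and 21 reads in all, depth limits every share and every order among Hox genes, and no order of clusters or paralogue groups is established.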
